A study of Arabidopsis thaliana with 8 samples.

Results

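Heat shock proteins and other molecular chaperones form one functional module of the Arabidopsis thaliana genome, and their transcripts were examined for regions bound by an antibody against N6-methyladenosine (m6A). The module was taken from the annotation: nuclear protein-coding genes whose product text contains "heat shock", "chaperon" or "DNAJ", without "transcription factor", "proteasome" or "homeodomain". This gave 267 of 27444 nuclear protein-coding genes, and 103 of the 267 had a peak in at least 1 library. The assay was miCLIP-seq, in which the antibody is crosslinked by ultraviolet light to poly(A)+ RNA before the bound RNA is sequenced. Leaves 5 to 9 were taken from untreated, soil-grown plants 4 weeks old of ecotype Col-0, at 22 °C under 16 h of light and 8 h of dark, 4 h after lights on.

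The groups were wild type and ABI3:MTA, called mta as in the labels, with 2 m6A-bound libraries each. In ABI3:MTA plants MTA, a catalytic subunit of the m6A writer complex, is driven by the promoter of ABI3, a gene active in embryos, which leaves little MTA in leaves. The labels state no other allele. They do not state if each replicate came from its own plants, and p-values measure only the spread between these libraries, which may be technical. The labels give no treatment, heat included, and no measure of RNA level was used here.

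Chaperones bind unfolded proteins and keep them from aggregating. J-proteins deliver clients to HSP70 and stimulate its ATPase, GrpE proteins release the nucleotide, HSP90 acts on nearly folded clients, chaperonins enclose clients in a ring, small heat shock proteins hold them, and HSP100 proteins pull aggregates apart. In plants m6A is deposited mainly in the 3' UTR, near RRACH, where R stands for A or G and H for any base but G, and the URUAY motif, where Y stands for C or U, is also associated with it.

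The sequences below show 3' UTR sites of members called in both wild-type libraries and in neither mta library. They are followed by a site of AT1G76440, a gene with a peak in every library. The bases printed for AT1G76440 lie outside its peak of wild-type replicate 2, which ends at chr1:28682219. From the members ranked highest by score, the top 5 whose RRACH nearest to the midpoint lies in the 3' UTR were taken, which leaves out AT3G03960, with no RRACH near its peaks, and AT1G77930, with peaks outside its representative transcript. Each line holds 30 bases around the RRACH nearest to the midpoint of the peak of wild-type replicate 1, 5′ to 3′ on the gene's strand, read from the RefSeq genome TAIR10.1. Every RRACH in a line is in capitals.
AT2G38000 (chr2:15903187-15903216, minus strand): agagagaaaatcAAACTggatttctAGACC
AT5G58740 (chr5:23725846-23725875, minus strand): tcaccatgacttAAACAaaatgtctcatgt
GRV2 (chr2:11462182-11462211, minus strand): tgtggtttccttGGACCaacaatgaAAACT
AT4G16100 (chr4:9108088-9108117, plus strand): gagaatctgtatAGACActgatcgtacatt
AT3G58020 (chr3:21481154-21481183, plus strand): atgtaaagttgtAAACAaatggatagagag
AT1G76440 (chr1:28682223-28682252, minus strand): ttcttttgtgtaGAACCatgtccaatgatc

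A second set shows coding-sequence (CDS) peaks. Each line holds the bases common to the CDS peaks of both libraries of a genotype, from the same genome, again with RRACH in capitals where it occurs. These are all such sites in the members, 2 in wild type and 7 in mta. A and G together make up 79.2% and 76.5% of the bases of the wild-type sites, and between 36.4% and 56% of those of the mta sites. The sites of AT4G28480 and AT5G16650 run 18 and 21 bases past an annotated exon edge, and that of ATERDJ3B runs past its stop codon.
AT4G12780, wild type (chr4:7514654-7514706, plus strand): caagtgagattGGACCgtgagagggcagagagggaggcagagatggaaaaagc
BOB1, wild type (chr5:21661819-21661869, plus strand): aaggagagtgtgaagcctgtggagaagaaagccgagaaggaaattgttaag
AT1G18700, mta (chr1:6442144-6442193, plus strand): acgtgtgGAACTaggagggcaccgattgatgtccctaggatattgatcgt
AT1G53030, mta (chr1:19760231-19760288, minus strand): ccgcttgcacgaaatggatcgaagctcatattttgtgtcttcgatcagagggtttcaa
ERD2, mta (chr1:21117227-21117279, plus strand): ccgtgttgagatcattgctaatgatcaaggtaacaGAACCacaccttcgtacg
ATERDJ3B, mta (chr3:23151032-23151081, minus strand): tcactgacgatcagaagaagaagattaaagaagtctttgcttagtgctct
AT4G28480, mta (chr4:14073422-14073492, plus strand): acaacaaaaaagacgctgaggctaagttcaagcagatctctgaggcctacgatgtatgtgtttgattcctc
AT5G16650, mta (chr5:5464667-5464720, minus strand): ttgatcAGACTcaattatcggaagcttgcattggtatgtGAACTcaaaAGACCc
AT5G17840, mta (chr5:5896939-5896993, minus strand): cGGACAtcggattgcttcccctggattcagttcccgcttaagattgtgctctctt

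List lengths were 8973 and 6584 peaks for the wild-type libraries, replicate 1 before replicate 2, and 1934 and 2092 peaks for mta. The lists give no reads, so the depth of a library is unknown. The score of a peak is the authors' own whole number, with no stated scale, and is used here only to rank or filter peaks within a list. It ran up to 161 in wild-type replicate 1 and to 58 in wild-type replicate 2. None of 14 leaf photosynthesis genes (such as those of Rubisco and of the photosystems) had a peak in any list, so the lists could not be used to check the tissue, and a gene without a peak is not a gene without RNA.

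Chaperone transcripts carried many more peaks in wild type than in mta. A member gene had at least 1 peak in 94 and 68 cases in the wild-type libraries and in 18 and 18 cases in the mta libraries. Both wild-type counts lay above both mta counts, at 81 ± 18.4 against 18 ± 0 genes (SD, n = 2 each), 4.5 times as many (exact permutation p = 0.333, the smallest that 2 libraries against 2 can give). As a share of the 267 members these were 35.2% and 25.5% in wild type, where all nuclear protein-coding genes gave 27.1% and 20.3%, and 6.74% in each mta library, where all genes gave 5.62% and 6.01%. The corresponding ratio for all other genes was 4.07. List length moved with this result: when each list was shortened to the 1934 highest-ranked peaks, 28 and 26 members had a peak in wild type against 18 and 17 in mta. With scores of at least 50 the genotypes overlapped, at 55 and 11 members in wild type against 6 and 13 in mta.

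Of the 267 members, 65 had a peak in both wild-type libraries, 24.3% (Clopper-Pearson 95% interval 19.3 to 29.9%) against 18.9% of all genes. Among these 65 genes, 48 had no peak in either mta library, 73.8% (interval 61.5 to 84.0%), beside 74.1% over all genes found in both wild-type lists. Absence from mta was thus about as frequent among chaperones as in the genome at large. A peak in all 4 libraries was found in 9 members, 3.37% against 1.94% of all genes, and 2 members had a peak in both mta libraries and in no wild-type library, 0.749% against 0.67%. Counting any of the 4 libraries, 38.6% of members had a peak against 30.9% of all genes, and 164 members had none. Intervals cover counting error only.

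The classes of chaperones differed in how many members carried peaks. Chaperonins stood highest in wild type, J-proteins close to the whole module, small heat shock and HSP20-like proteins lower, and HSP70 genes were found in 1 wild-type library alone. These differences between classes are counts and were not tested.

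**Figure D1:**
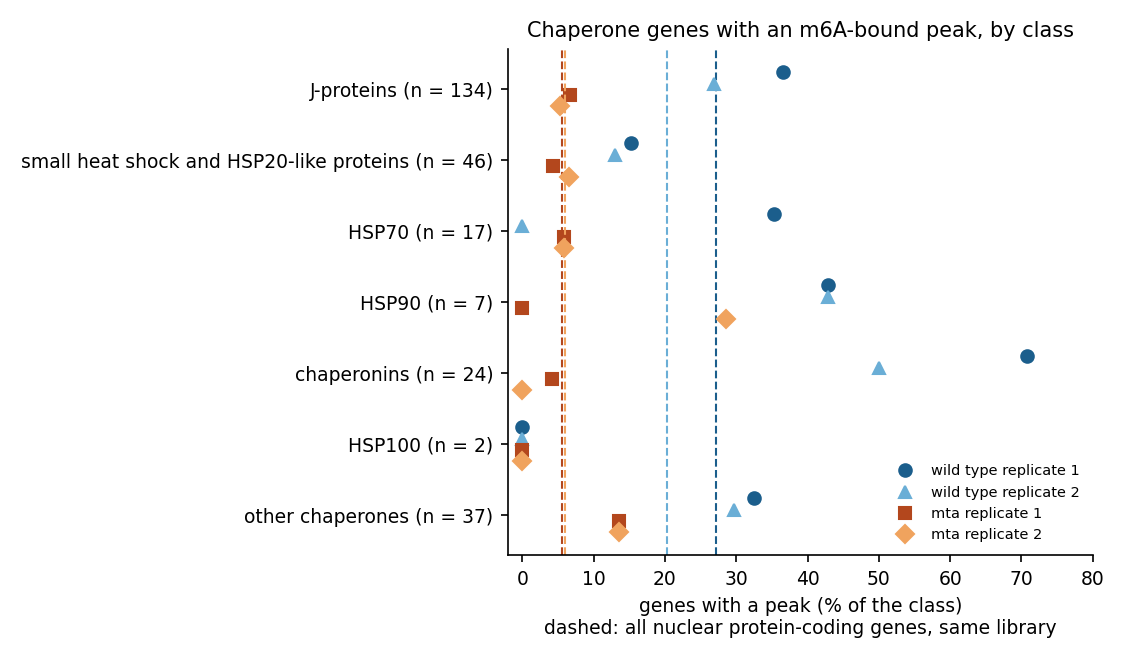
Percentage of the genes of each chaperone class with at least 1 peak (x axis) in each of the 4 libraries (symbols), with the class size after its name. Dashed lines mark the percentage over all nuclear protein-coding genes in the same library (27.1, 20.3, 5.62 and 6.01%). Chaperonins reach the highest percentages in both wild-type libraries, with 17 and 12 of 24 genes, and both HSP100 genes sit at 0.

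J-proteins were the largest class, with 134 genes. A peak was called in 49 and 36 of them in the wild-type libraries and in 9 and 7 in the mta libraries. Over all genes the shares called in these libraries were 27.1%, 20.3%, 5.62% and 6.01%. Of the 35 with a peak in both wild-type libraries, 28 had none in mta, where the share over all such genes was 74.1%. They include GRV2, a large J-domain protein needed for endosome function and the gravity response, ARG1, a J-protein of the gravity response, ARC6, which works in chloroplast division, and ATERDJ2A and ATERDJ2B, Sec63-type J-proteins of the endoplasmic reticulum. J2 and J3, the close cytosolic DnaJ homologues, had 3' UTR peaks in wild-type replicate 1 only, with scores of 44 for J2 and of 46 and 40 for J3.

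Among 24 chaperonins and chaperonin-like proteins, 17 were called in wild-type replicate 1 and 12 in replicate 2, against 1 in mta replicate 1 and none in mta replicate 2. The shares called over all genes were 27.1%, 20.3%, 5.62% and 6.01% in these 4 libraries. All 12 chaperonins of replicate 2 were also in replicate 1. Of these, 11 had no mta peak, where the share over all genes in both wild-type lists was 74.1%. CHL-CPN10, a plastid co-chaperonin, was the exception, with 3' UTR peaks scoring 48 and 20 in wild type and 17 in mta replicate 1. Of the 13 members whose product text names the TCP-1/cpn60 family, 7 had a peak in both wild-type libraries. All 7 belong to the 9 with this text that the annotation gives no symbol, and none of them had a peak in mta. They are AT1G24510, AT3G02530, AT3G03960, AT3G11830, AT5G16070, AT5G20890 and AT5G26360. Of the 4 with this text and a Cpn60 symbol, Cpn60alpha2 and Cpn60beta2 were called in wild-type replicate 1, and none of the 4 in replicate 2. The 13 leave out chaperonin 60 genes with other product text. Of these, CPN60A and CPN60B had a peak in replicate 1 alone, with scores of 40 and 34. HSP60-3A had peaks in both wild-type libraries, scoring 63 and 15, and HSP60-2 had none. HSP60, a mitochondrial chaperonin, had a peak in replicate 1 alone, with a score of 110. RbcX1 and RbcX2, assembly factors of Rubisco, had 3' UTR peaks in both wild-type libraries and none in mta.

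The strongest chaperonin peak was that of AT3G03960. It covered the 3' UTR at chr3:1027656-1027762 with a score of 148 in wild-type replicate 1, and at chr3:1027659-1027747 with a score of 50 in replicate 2, whose highest score on that strand was 58. Replicate 1 had another peak just downstream, with a score of 52. Neither mta library had a peak in the gene, and no RRACH lay within 50 nt of any of these midpoints.

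HSP70 genes had peaks in only 1 of the wild-type libraries. Of 17 genes, 6 were called in replicate 1, none had one in replicate 2, and 1 had a peak in each mta library. Over all genes the shares called in these 4 libraries were 27.1%, 20.3%, 5.62% and 6.01%. The 6 were BIP3, an HSP70 of the endoplasmic reticulum, cpHsc70-1 of the chloroplast, mtHsc70-1 of mitochondria, HSP91, AT1G11660 and AT4G16660. Their peak scores were 38 for BIP3, 20 for cpHsc70-1, 43 for mtHsc70-1, 56 for HSP91, 25 for AT1G11660 and 47 for AT4G16660. Within replicate 1 these were moderate to low, with a median score percentile of 34.97 (range 6.87 to 54.8). The same median was 72.0 for the 65 members whose gene also had a peak in replicate 2, and 35.8 for the 29 members that did not. Other genes gave 67.3 and 32.6, so peaks seen in replicate 1 alone ranked low in general, and whether the shorter list of replicate 2 accounts for the HSP70 genes was not tested. The major cytosolic forms HSC70-1, Hsp70-2, AT3G09440, HSP70 and Hsp70b, together with BIP1, BIP2, cpHsc70-2, AT4G32208 and Hsp70-15, had no peak in any library. A peak of wild-type replicate 1 with a score of 37 lay 467 nt past the annotated end of Hsp70-15, whose gene model has no 3' UTR, and was not counted. AT2G24395 and AT3G05345 likewise had wild-type peaks past their annotated ends, AT3G05345 with no peak inside the gene, and CHL-CPN10 had a peak in each wild-type library in an exon shared with AT2G44660, which was left out.

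Of 7 HSP90 genes, CR88 of the chloroplast and Hsp89.1 of mitochondria had a 3' UTR peak in both wild-type libraries and none in mta. Over all genes 18.9% had a peak in both wild-type libraries, and 74.1% of those had none in mta. Scores were 48 and 18 for CR88, and 78 and 25 for Hsp89.1, in replicates 1 and 2. SHD, the HSP90 of the endoplasmic reticulum, had a 3' UTR peak of score 49 in wild-type replicate 1 only. The cytosolic HSP81-2 and HSP81-3 had none. HSP90.1, the heat-inducible cytosolic form, had 1 CDS peak, in mta replicate 2, with a score of 56. Hsp81.4 had CDS peaks in wild-type replicate 2 and in mta replicate 2, at different positions. Of the 30-base stretches of 1 of its wild-type peaks 100% also occur elsewhere in the genome, in HSP81-2 and HSP81-3, and of those of its mta peak 61.9% do. Peaks in these stretches cannot be told apart between the copies.

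The small heat shock proteins named by size, known from heat-stressed plants, had no peaks. These 8 genes, which are ATHSP22.0, HSP1, HSP17.4, HSP17.6A, HSP17.6II, HSP18.2, HSP21 and HSP23.6-MITO, were without a peak in all 4 libraries. Of all genes, 30.9% had a peak in at least 1 library. The remaining 38 genes of the class gave 7 and 6 genes with a peak in wild type against 2 and 3 in mta. Shares over all genes were 27.1% and 20.3% against 5.62% and 6.01%. The split used symbol and product text alone, so the 38 can hold small heat shock proteins known by size but annotated only as HSP20-like. Among the 38 is AT1G12180, whose product text also gives a size and which had no peak. HSP101, the cytosolic HSP100 disaggregase, and AT4G14675, annotated as ClpB1-like, also had no peak. Such genes are known for low expression without heat, but no expression values were used here, so little RNA and unmodified RNA cannot be told apart.

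The genes with peaks, all annotated as HSP20-like, were AT1G54850, AT1G76440, AT2G19310, AT3G03773, AT4G02450, AT5G58740 and BOB1, a noncanonical small heat shock protein with a NudC domain. AT5G58740 was among the highest ranked of all members, with 3' UTR peaks scoring 135 and 50 in wild type and none in mta. BOB1 had a CDS peak in both wild-type libraries, with scores of 35 and 29, and a 3' UTR peak of wild-type replicate 1 at the same place as a peak of mta replicate 2, with scores of 31 and 55.

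Regulators of the heat response were also read. All 21 heat shock transcription factors listed, 3 of which are members through the text "heat shock factor", had no peak in any library. Over all genes 30.9% had a peak in at least 1 library. Of 22 co-chaperones and heat-response partners, 3 of them members, 13 were called in wild-type replicate 1, 8 in replicate 2, and 3 in each mta library. Over all genes the shares called in these libraries were 27.1%, 20.3%, 5.62% and 6.01%. In 8 the peak was present in both wild-type libraries, and 3 of the 8 had none in mta, where the share over all such genes was 74.1%: Hop1, a co-chaperone that links HSP70 and HSP90, ROF1, an FKBP-type peptidyl-prolyl isomerase that binds HSP90, and AT3G12050, with an Aha1 domain. HSBP, a protein that binds heat shock factors, had 3' UTR peaks scoring 55 and 20 in wild type, and 28 in mta replicate 1.

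Of the 12 members with the highest-ranked peaks in wild type alone, 8 were J-proteins. That class also supplied 28 of the 48 genes from which the 12 were drawn, and the 2 shares were not tested against each other. AT2G38000, annotated as DnaJ-like, scored 135 and 50 in wild-type replicates 1 and 2, at chr2:15903170-15903289 and chr2:15903183-15903286. GRV2 scored 134 and 50, with its replicate 1 peak at chr2:11462124-11462271. The midpoints of both peaks of each gene lie in the 3' UTR, within 150 nt of the stop codon, and neither gene had a peak in mta. AT4G16100, annotated as a putative heat shock protein with DUF789, scored 143 and 50. Also in this group stood AT5G58740, AT3G03960, AT1G77930, AT3G58020, AT3G57340, AT1G21080, AT1G61770, AT1G21660 and EMB1241, a GrpE-type nucleotide exchange factor, which scored between 99 and 148 in replicate 1 and between 39 and 50 in replicate 2. The peaks of AT1G77930 lay outside its representative transcript, and the rest in 3' UTRs.

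**Figure D2:**
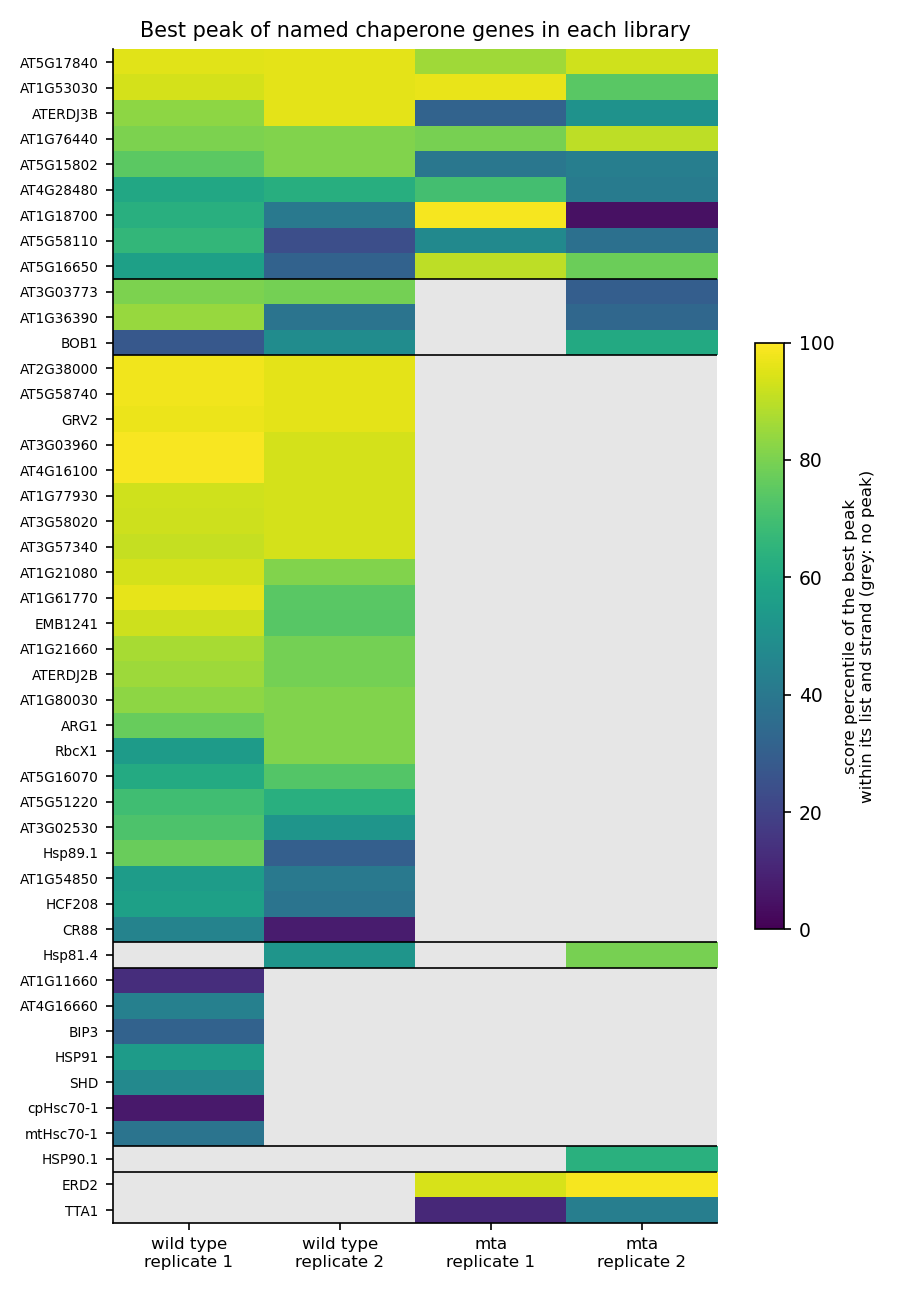
Score percentile of the best peak, ranked within its list and strand (colour), for the named chaperone genes with a peak (rows) in each library (columns), with grey for no peak. Lines separate genes by the number of wild-type and mta libraries with a peak. The top block holds the 9 genes with a peak in all 4 libraries, and the bottom block holds ERD2 and TTA1, with a peak in both mta libraries and in neither wild-type library.

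The 9 members with a peak in every library were AT1G18700, AT4G28480, AT5G16650, AT5G17840 and ATERDJ3B among J-proteins, AT1G76440 among HSP20-like proteins, and AT1G53030, AT5G15802 and AT5G58110 among other chaperones. In AT1G18700 and AT5G17840 no mta peak overlapped a wild-type peak, and in the other 7 at least 1 did. AT5G17840, with the cysteine-rich DnaJ domain, had 3' UTR peaks scoring 124 and 50 in wild type, centred 140 and 133 nt past the stop codon. Its mta peaks scored 54 and 92 and lay in the CDS, 372 and 375 nt before the stop. AT1G18700 had wild-type peaks 12 and 6 nt past the stop, with scores of 62 and 28, and mta peaks 617 and 632 nt before it, with scores of 79 and 29. AT1G53030, annotated as the copper chaperone COX17 of cytochrome c oxidase, had broad wild-type 3' UTR peaks scoring 117 and 50. Its mta peaks, scoring 72 and 66, were centred in the CDS, 36 and 29 nt before the stop, and lay inside the peak of wild-type replicate 1.

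Other members had sites in common between the genotypes. In AT1G76440 the 3' UTR peaks scored 85 and 42 in wild type against 48 and 84 in mta, with midpoints 151, 188, 137 and 138 nt past the stop. In AT5G58110, annotated as an activator of chaperone ATPase, they scored 65 and 23 in wild type against 32 and 46 in mta. ATERDJ3B, a J-protein of the endoplasmic reticulum, had the most peaks of any member, 7 in all, with 3' UTR peaks in each library and a CDS peak close to the stop in both mta libraries. In AT4G28480 both mta libraries had a CDS peak with the same coordinates, chr4:14073422-14073492, scoring 41 and 47. Wild-type replicate 1 had a peak of score 13, the lowest score in that list, at the same place. These 3 peaks run up to 18 bases past an annotated exon edge.

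Among the 17 members found in both wild-type libraries and in at least 1 mta library, 14 had an mta peak that overlapped a wild-type peak by at least 1 base, 82.4%, beside 63.9% of the 1328 other genes of that kind. Counted by peaks, 22 of 30 mta peaks in these members did so, 73.3%, beside 61.4% in the other genes. Replicates met each other about as often as in other genes: 88.9% of member peaks of wild-type replicate 2 met one of replicate 1, 62.8% the other way, and 50% in mta either way.

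Both members with a peak in both mta libraries and in no wild-type library had only CDS peaks. ERD2, an HSP70, had them at chr1:21117227-21117279 with a score of 62 and at chr1:21117225-21117291 with a score of 113, which are score percentiles of 93.9 and 98.5. Of the 30-base stretches of these peaks, 66.7% and 47.4% also occur elsewhere in the genome, in AT3G09440 and HSC70-1. The copies cannot be told apart in those stretches, while the remaining stretches of each peak occur only in ERD2. TTA1 is a member through its product text, which names a class I heat shock protein and DUF1423, although its CDS of 2202 nt is far longer than the 471 nt of HSP17.4. Its mta peaks scored 20 and 50 and did not overlap each other.

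Peaks of chaperone transcripts lay almost wholly in 3' UTRs in wild type and were divided between 3' UTR and CDS in mta. In the wild-type libraries 101 and 68 peaks fell in 3' UTRs and 6 and 9 in CDS, and in the mta libraries 9 and 8 in 3' UTRs and 11 and 12 in CDS. The 3' UTR share was 94.4% and 88.3% in wild type against 45% and 40% in mta, with no overlap between genotypes (exact permutation p = 0.333, again the smallest possible). Other genes gave 91.4% and 90.8% in wild type against 53.6% and 44.6% in mta. The number of 3' UTR peaks was 9.94 times as high in wild type as in mta, while the CDS peaks were fewer in wild type, at 7.5 ± 2.12 against 11.5 ± 0.707 (SD, n = 2 each, exact permutation p = 0.333). Other genes had the same directions, with 7.76 times as many 3' UTR peaks in wild type and a mean of 614.5 against 833.5 CDS peaks. No member peak lay in a 5' UTR.

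**Figure D3:**
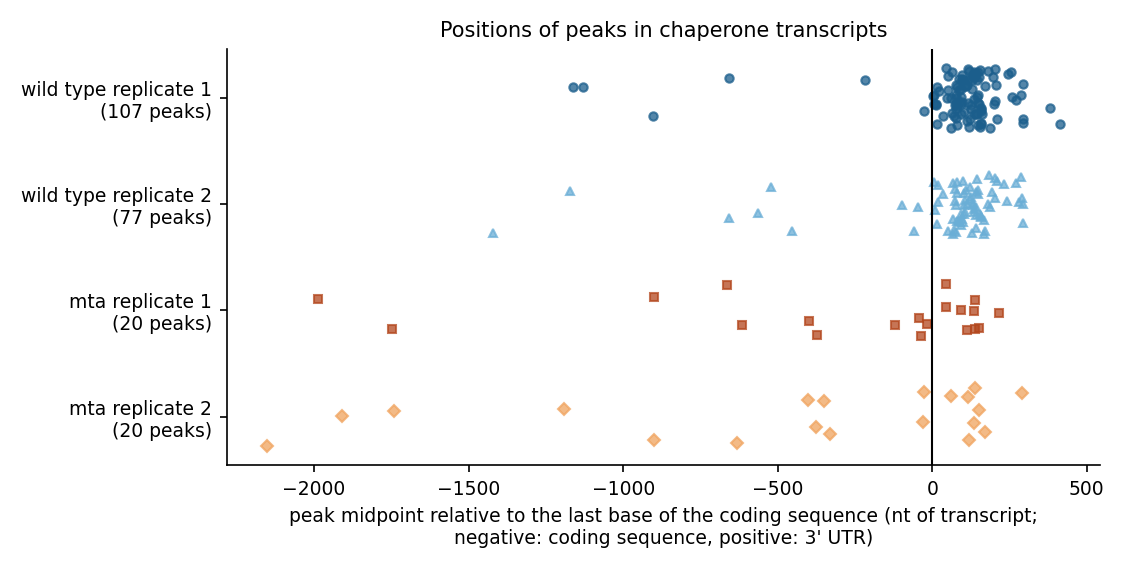
Midpoints of all member peaks placed on their transcripts (points), in nt from the last base of the CDS (x axis, 0 marked by a line), for each library (rows), with random vertical offsets for visibility. Wild-type peaks gather in the 3' UTR, with medians of 120 and 124 nt past the stop for those in the 3' UTR, and mta peaks spread along the CDS as well.

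Within the 3' UTR the position was similar in both genotypes, with median midpoints 120 and 124 nt past the stop in wild-type libraries, against 136 and 136.5 nt in the mta libraries. Peaks within 100 nt of the stop codon on either side made up 39.3% and 35.1% of placed peaks in wild type against 30% and 15% in mta. Peaks were wider in wild type, with a median of 98 and 90 bases against 59.5 and 53.5, and other genes showed widths of 88 and 83 against 56 and 54 bases. The median 3' UTR was 269 nt in the 65 members found in both wild-type libraries and 229 nt in the 164 members with no peak, 26 of which have no annotated 3' UTR. For other genes these medians were 276 and 194 nt.

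The CDS peaks differed in mean base composition between the libraries of the genotypes. In wild type A and G together made up on average 69.1% and 73.5% of the bases of member CDS peaks (6 and 9 peaks), and in mta 51.8% and 51.0% (11 and 12 peaks). The libraries did not overlap, at 71.3 ± 3.13% against 51.4 ± 0.576% (SD, n = 2 each, exact permutation p = 0.333). Single peaks ranged from 55.4 to 81.7% in wild type and from 32.8 to 67.3% in mta, so individual peaks did overlap. Other genes had the same order with a smaller gap, 58.0% and 59.6% against 48.8% and 49.9%. In 3' UTR peaks of members the share was 48.5% and 47.7% in wild type against 42.2% and 45.6% in mta.

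**Figure D4:**
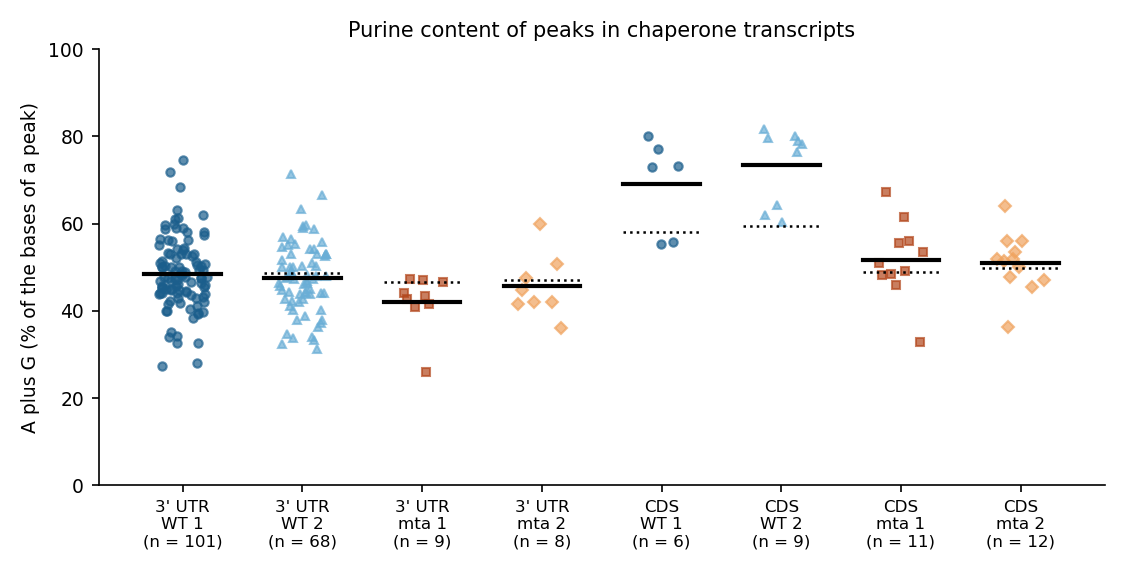
Share of A plus G (y axis, % of the bases of a peak) in single member peaks (points) by feature and library, with the member mean as a solid line and the mean over peaks of all other genes as a dotted line. The wild-type CDS peaks average 69.1 and 73.5%, above the mta CDS peaks at 51.8 and 51.0% and above the dotted lines.

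The CDS peaks with the most purines in wild type were those of AT4G12780, at 80% and 81.7% in replicates 1 and 2. This gene and its neighbour AT4G12770, both annotated with a DnaJ domain, had the same arrangement, a CDS peak and a 3' UTR peak, in wild-type replicate 1, and they share up to 3.57% of the 30-base stretches of these peaks. The BOB1 CDS peak held 73.2% and 76.5% purines. These genes carried no CDS peak in mta.

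RRACH lay within 50 nt of the midpoint in 77.6% and 74.0% of placed member peaks in wild type against 75% and 75% in mta, and the libraries overlapped (exact permutation p = 1). The sign of this difference depended on the processing, and with a window of 25 nt or shortened lists both wild-type values lay above both mta values. In member 3' UTR peaks alone RRACH was near 78.2% and 73.5% in wild type against 55.6% and 62.5% in mta. These mta shares are 5 of 9 and 5 of 8 peaks. In member CDS peaks it was near 66.7% and 77.8% (6 and 9 peaks) against 90.9% and 83.3% (11 and 12 peaks). All placed peaks of other genes gave 77.3% and 77.4% in wild type against 72.1% and 73.5% in mta. Of all windows of 101 nt in the 3' UTRs of members, 68.6% hold RRACH on the gene's strand, the same as in the 3' UTRs of all genes, so a match near a peak is common by position alone. URUAY was found near 54.2% and 46.8% of wild-type and 20% and 20% of mta peaks (exact permutation p = 0.333). For other genes this was 57.2% and 56.9% against 44.9% and 41.1%. In 3' UTR peaks alone it was 56 of 101 and 36 of 68 peaks in wild type and 3 of 9 and 3 of 8 in mta. In 3' UTR peaks of other genes URUAY was as frequent in mta, at 61.2% and 59.6%, as in wild type, at 59.8% and 60.1%. The windows of 101 nt hold URUAY in 47.8% of cases in the 3' UTRs of members and in 50.2% over all genes. The motifs were searched on the gene's strand only, and matches of RRACH and URUAY may overlap.

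**Figure D5:**
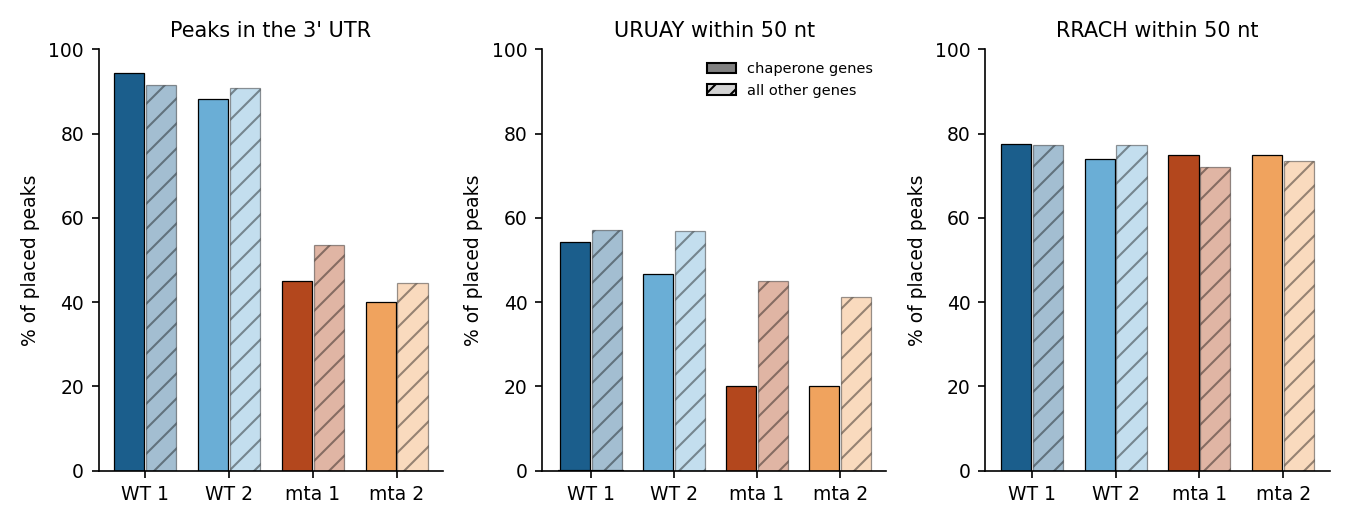
Percentage of placed peaks (y axis) in the 3' UTR, with URUAY within 50 nt and with RRACH within 50 nt, in each library (x axis, WT for wild type), for chaperone genes (plain bars) and all other genes (hatched bars). The 3' UTR and URUAY percentages are higher in both wild-type libraries than in both mta libraries, and the RRACH percentages of chaperone genes lie between 74.0 and 77.6%.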

How the data were processed

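Peak lists of the 4 m6A-bound libraries were used, and the 4 supernatant libraries were not analysed here. The submitters' processing notes name the TAIR10 genome, MACS2 and STAR 2.4.0, with caller settings not given in the sources used here. Every list deposited by the authors gives peak positions and a whole-number score per peak, called per library and per strand, with no reads, so depth is unknown.

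Peaks were placed on RefSeq TAIR10.1, where each of the 19583 peak ends lay within its chromosome. A peak belonged to a gene when its midpoint fell in a same-strand exon, and midpoints in exons of more than 1 gene were left out. The transcript with the longest CDS gave the location. In wild-type replicates 1 and 2, 6 and 4 member peaks lay outside it and have no location or motif. Genotypes were compared over libraries by two-sided exact permutation, and shares carry Clopper-Pearson 95% intervals. Placement was tested on simulated data. Python 3.11.15, numpy 2.4.6, pandas 2.3.3 and scipy 1.17.1 were used.

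The members, classes and lists were chosen with earlier results of these data known. Named genes are members with a peak in all 4 lists or in both mta lists alone, the 12 ranked highest in both wild-type lists without mta, up to 3 more per class, the member with most peaks, and HSP70, HSP90, HSP100 and HSP17 genes by name. Further genes were picked once their values were known, as were base composition and the ranks of peaks missing from replicate 2. Alternatives covered score, list length, placement, gene model, membership, motif, window, left-out libraries and a replicate block.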

Additional observations from a re-analysis of the deposited data

How the results depend on the processing

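The wild-type minus mta difference of 63 members with a peak became 23.5 with scores of at least 50, 9.5 with lists shortened to the shortest, and 12 with members limited to "heat shock" in the product text, and it ran from 50 to 76 when a library was left out. The 48 of 65 members in both wild-type lists without mta became 8 of 11, 15 of 20 and 10 of 14 under the same 3 alternatives, and ran from 50 to 76 with a library left out, 76 of 94 without wild-type replicate 2. As a share this stayed between 71.4 and 81.5% in the 12 alternatives run. The 3' UTR share difference of 48.9 percentage points kept its direction in all 12, between 45.8 and 72.4. The RRACH difference of 0.798 points changed sign: it was -0.513 with scores of at least 50, -0.0356 both with any base of the peak in an exon and with ambiguous midpoints kept, -6.62 with "heat shock" text, -2.99 without the other chaperones and -1.52 with a window of 100 nt, and ran from -0.974 to 2.57 with a library left out. It was larger, at 10.1 with shortened lists and 11.5 with a window of 25 nt (exact permutation p = 0.333 each), and 3.43 with the motif DRACH, where D is any base but C (p = 0.667, exact). The cause was not tested. With the replicate number as a block the differences stayed at 63 members, 48.9 points and 0.798 points (exact sign-flip p = 0.5, 0.5 and 1, and 0.5 is the smallest possible). Whether the numbers pair the libraries is not known. The correlation of deviations was 0.0114 between the same numbers, which does not settle it. With 2 libraries per genotype the value between different numbers, -0.0114, is the same value with its sign reversed by construction. Depth is unknown, and 2 libraries per genotype cannot give a p under 0.333.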
